A study of Mus musculus with 16 samples.

Results

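Intergenic domains of histone H3 dimethylated at lysine 36 (H3K36me2) are described here in wild-type mouse neural stem cells. They were chosen on measured values, as the wild-type H3K36me2 islands that touch no protein-coding gene span of GRCm38, on the 16 autosomes other than 1, 4 and 15. An island is a region in which the authors' software found more reads than its background model allows. Of 3643 wild-type H3K36me2 islands on those autosomes, 1965 were intergenic, which is 53.9% (95% exact interval 52.3 to 55.6), and 1678 were genic. The whole wild-type H3K36me2 list holds 4566 islands, and the 13 lists of the series hold 213103.

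H3K36me2 is laid down mainly by the methyltransferases NSD1, NSD2 and ASH1L and spreads over broad stretches of chromatin between genes and near gene starts. H3K36me3, the next methylation step, is deposited by SETD2 behind elongating RNA polymerase II and so marks the bodies of transcribed genes. Methylation of lysine 36 inhibits PRC2, the complex that writes the repressive mark H3K27me3, and intergenic H3K36me2 recruits the DNA methyltransferase DNMT3A. H3K4me1 marks enhancers, H3K27ac marks active enhancers and promoters, and H3K4me3 marks promoters.

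The study compared neural stem cells heterozygous for Setd5 (Setd5+/-) with wild-type ones by chromatin immunoprecipitation and sequencing. Cells came from the telencephalic cortex of mouse embryos at E14.5, grew as neurospheres with FGF and EGF, and were plated on Matrigel before fixation in 1% formaldehyde for 10 min. Groups used here are Setd5+/- and wild-type cells with H3K36me2, H3K36me3, H3K27me3, H3K4me1, H3K27ac and H3K4me3, and wild-type cells with V5-tagged SETD5, labelled WT-S5V5. Each group has 1 library, so no comparison has a p-value, and the allele, the number of embryos and the way the V5 tag was introduced are not stated in the labels. Intervals are 95% exact (Clopper-Pearson) intervals for shares. They cover the counting of islands only, since islands of 1 library are not replicates of a condition.

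Reads inside islands numbered 1019278 to 5093126 per list, and reads outside them are unknown. The Setd5+/- H3K36me2 list stood apart, with 54.6% of its island reads on chromosome 1 against 10.0% in wild type. Only 615109 of its 2418955 island reads (25.4%) lay on the 16 autosomes, against 853368 of 1073942 (79.5%) in wild type, and it covered 33.6 Mb there against 55.0 Mb in wild type. Active marks on radial glia genes matched the labelled cell type, while marks on genes of other cell types were mixed. In wild type, islands of H3K4me3 touched 10 of 10 radial glia genes and islands of H3K27ac touched 9 of 10, with Prom1 the exception. Of 6 neuron genes, H3K27me3 touched 5, H3K4me3 touched 4 and H3K27ac touched 1. Of 6 microglia and blood genes, 1 had H3K4me3 and none had H3K27ac, and of 6 endothelial and mesenchymal genes, 4 had H3K4me3 and 1 had H3K27ac. Of 6 astrocyte and oligodendrocyte genes, 2 had H3K4me3 and the same number had H3K27ac. H3K27me3 touched 1 of 10 radial glia genes and 2 of 6 microglia and blood genes. It touched none of the astrocyte and oligodendrocyte genes and none of the endothelial and mesenchymal genes.

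Sequences are shown for the transcribed elements that the intergenic islands do contain, since the rule removes only protein-coding genes. Annotated miRNA genes lay in 3 members, and no Setd5+/- H3K36me2 island overlapped any of those 3. The exact interval, 0 to 70.8%, includes the 32.8% overlapped over all members. The mature sequences below are from RefSeq (GRCm38.p6), with the seed, bases 2 to 8, in capitals.
mmu-miR-125b-5p: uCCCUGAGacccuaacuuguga
mmu-miR-125b-2-3p: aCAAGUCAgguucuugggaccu
mmu-miR-6390: gAAUUGAUcaggauguaacca
mmu-miR-12204-5p: uUGAGUCUuagaugagug
None of the 4 seeds is shared. Mir125b-2 encodes the first pair, and miR-125b is a brain-enriched miRNA that represses Lin28 and other progenitor transcripts. Its island, chr16:77645601-77656800, held 181 reads over 11.2 kb, lay 529 kb from Usp25, overlapped H3K4me1, with H3K36me3 along 85.7% of its length. The Mir6390 island, chr14:105616001-105624800, held 142 reads and overlapped H3K27ac. The island with mmu-miR-12204-5p, chr9:14176801-14187200, held 162 reads and overlapped H3K4me1.

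Promoters of long noncoding RNA genes also lay inside the domains. Of the RefSeq promoter windows, each of 300 bases around a start, 184 windows of 156 genes lay in members, and all 184 belonged to lncRNA genes. A wild-type H3K4me3 island overlapped 18 of them and 17 of those also had wild-type H3K27ac. The 4 windows printed are those with H3K4me3 and H3K27ac in wild type that were also in a Setd5+/- H3K36me2 island. A further one, of Gm34607, runs on the opposite strand over nearly the same bases as Gm10825. Capitals mark 3 motifs that were searched on both strands. The GC box was searched as GGGCGG. For the box named after its own letters the search string was CCAAT, which reads ATTGG on the opposite strand. The TATA box was searched as TATAAA. In these windows the motifs do not overlap each other.
Gm10825 (chr10:22402563-22402862, plus strand): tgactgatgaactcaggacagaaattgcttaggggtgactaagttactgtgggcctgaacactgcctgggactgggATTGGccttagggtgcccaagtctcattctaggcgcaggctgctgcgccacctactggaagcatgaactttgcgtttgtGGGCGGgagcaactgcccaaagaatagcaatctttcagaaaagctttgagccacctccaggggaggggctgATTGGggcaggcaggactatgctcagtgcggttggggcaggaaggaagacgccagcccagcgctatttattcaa
Gm39473 (chr12:74825050-74825349, plus strand): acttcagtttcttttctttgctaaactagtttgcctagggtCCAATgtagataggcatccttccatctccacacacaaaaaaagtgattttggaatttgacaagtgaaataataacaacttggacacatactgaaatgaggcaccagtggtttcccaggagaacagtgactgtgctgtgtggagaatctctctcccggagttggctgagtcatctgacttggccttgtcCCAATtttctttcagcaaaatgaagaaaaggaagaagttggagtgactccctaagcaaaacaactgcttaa
Gm40066 (chr3:65494881-65495180, plus strand): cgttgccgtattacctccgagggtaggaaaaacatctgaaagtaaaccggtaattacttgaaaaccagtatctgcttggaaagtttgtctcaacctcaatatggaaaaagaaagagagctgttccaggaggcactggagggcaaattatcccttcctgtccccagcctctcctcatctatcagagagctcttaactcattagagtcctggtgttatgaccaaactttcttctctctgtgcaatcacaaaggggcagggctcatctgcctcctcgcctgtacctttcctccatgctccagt
Gm30149 (chr7:73608691-73608990, minus strand): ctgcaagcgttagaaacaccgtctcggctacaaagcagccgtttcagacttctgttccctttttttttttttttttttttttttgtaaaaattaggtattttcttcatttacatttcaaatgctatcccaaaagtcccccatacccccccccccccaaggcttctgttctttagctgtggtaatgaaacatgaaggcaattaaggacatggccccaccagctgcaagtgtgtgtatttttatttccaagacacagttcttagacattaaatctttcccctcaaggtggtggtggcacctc
The 184 windows had a median GC content of 43.3% and 3 CpG sites, against 52.7% and 7 over all 32851 promoter windows. A GC box was found in 4.89% of the 184 and 35.7% of all, a CCAAT box in 33.7% and 37.4%, and a TATA box in 22.3% and 13.6%. The 18 windows with H3K4me3 had a GC box in 22.2%. All 32851 windows include those of protein-coding genes, while the 184 are of lncRNA genes only. A comparison with other lncRNA windows was not made, so gene class and H3K36me2 cannot be told apart here.

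Marks at these starts were present in both genotypes with 1 exception. At Gm10825 the H3K4me3 islands held 41 reads over 1.4 kb in Setd5+/- cells and 214 reads over 3.6 kb in wild type. H3K27ac there had no Setd5+/- island, against 54 reads over 1.4 kb in wild type. H3K36me2 around the same start ran over 92.0 kb with 2022 reads in Setd5+/- cells, chr10:22340001-22432000, and over 35.2 kb with 700 reads in wild type, chr10:22383201-22418400. Gm30149, 63.9 kb from the chromatin remodeller gene Chd2, had 275 H3K4me3 reads in Setd5+/- cells and 330 in wild type. At Gm40066, 30.0 kb from Tiparp, H3K4me3 had 178 reads in Setd5+/- cells and 133 in wild type, and at Gm39473, 58.8 kb from the potassium channel gene Kcnh5, it had 75 reads in Setd5+/- cells and 59 in wild type. H3K4me3 lists of both genotypes had like depth on these autosomes, with 3947946 island reads in Setd5+/- cells and 3775856 in wild type.

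Intergenic islands were as wide as genic ones and slightly denser. The median width was 13.6 kb in both classes, and the middle 50% ran from 10.4 to 17.6 kb in both. The mean was 15.3 ± 7.28 kb (SD, n = 1965 islands) for intergenic and 14.9 ± 7.96 kb (SD, n = 1678 islands) for genic islands. Widths reached 64.0 kb outside genes and 168 kb in genes. A member held a median of 206 reads (middle 50% 167 to 269), against 201 for a genic island. Reads per kb had a median of 15.6 (95% interval 15.5 to 15.7) in intergenic and 15.4 (15.3 to 15.5) in genic islands, and 90% of members lay between 13.8 and 18.3. The distributions overlapped nearly everywhere. The intergenic median was higher on 13 of 16 autosomes. Since reads and widths chose the islands, these values describe the list and support nothing further.

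**Figure D1:**
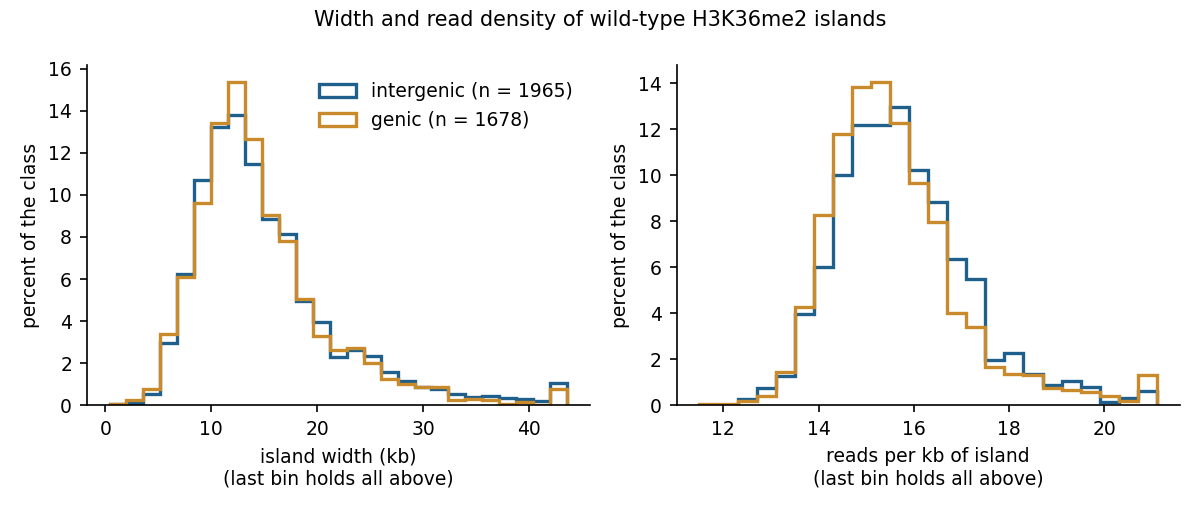
Histograms of island width in kb (left) and reads per kb (right) for 1965 intergenic and 1678 genic wild-type H3K36me2 islands, as a percent of each class. The width curves share a median of 13.6 kb, and the density curves overlap with medians of 15.6 and 15.4 reads per kb.

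Strength differed little among members. Strength classes 1 to 4, of nearly equal size, were cut by strength at 14.7, 15.5 and 16.4 reads per kb over all islands of the 16 autosomes. A median member of 206 reads has a Poisson interval of 179 to 236 reads, which over 13.6 kb is 13.1 to 17.4 reads per kb and spans all 3 cuts. Class 4 also held the narrow islands, with a median width of 9.60 kb against 16 kb in class 1. All 14 members under 5 kb were in class 4.

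The domains took up a small share of the sequence between genes. Members covered 30.0 Mb, 2.56% of the 1170 Mb outside protein-coding genes. H3K36me2 of both classes together covered 2.68% of that sequence and 2.94% of gene length. Sequence outside genes was 59.3% of the annotated span. Members were 54.6% of the H3K36me2 covered length, and 57.0% of that length lay outside genes. Members held 466760 reads and genic islands 386608. Genic islands lay mostly in genes, with 94.6% of their length inside a gene span.

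At the edge of the rule, the members closest to a gene were an island 84 bp from Itpr1, a calcium channel gene of the endoplasmic reticulum, at chr6:108551201-108570400, one 210 bp from Erich3 and one 339 bp from Vmn2r20. The islands just left out overlapped Tcf7l2, a transcription factor gene of the Wnt pathway, by 59 bp, Fam71d by 119 bp and Prl3c1 by 141 bp.

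Most members lay far from genes. The median distance to the nearest protein-coding gene was 139 kb (95% interval 127 to 156, middle 50% 43.7 to 329 kb). Windows of 800 bp outside genes and outside members had a median of 80.0 kb (middle 50% 18.3 to 284 kb). Windows of the same size inside members had a median of 161 kb (middle 50% 57.1 to 346 kb). Wide islands close to a gene touch it more readily and are then left out. The part of this rule in the distances was not tested. Only 20 members lay within 1 kb of a gene and 159 (8.09%) within 10 kb, while 825 lay within 100 kb and 1720 (87.5%) within 500 kb. Near genes they lay more often on the side of the start. Of 130 members within 10 kb of a gene of known strand, 89 (68.5%, 59.7 to 76.3) were upstream of it, against 52.5% of windows at that distance. Over all distances 788 of 1487 members (53.0%) lay on the start side, and for 478 members the strand of the nearest gene was not known.

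The members were spread unevenly over the sequence between genes. They fell into 587 intervals between neighbouring genes. Taken over members, so that an interval counts once for each member in it, the median interval length was 787 kb. The 111 intervals with 5 members or more held 1209 of them (61.5%), 1 interval held 47, and 298 intervals held a single member. Of 1949 neighbouring pairs of members on a chromosome, 983 (50.4%) were within 50 kb. The nearest genes numbered 704, and 36 genes with 10 members or more accounted for 572 members (29.1%).

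Single genes had many members nearest to them. Nova1, a neuronal splicing factor gene, had 39, Zfp608, a zinc finger gene, had 27, and Marcks, which encodes an actin-binding substrate of protein kinase C, had 26. Sema6d, an axon guidance gene, had 23, as did Rfpl4b. Klf6, a zinc finger transcription factor gene, had 22. Zeb2, a transcription factor gene of cortical development, had 21, as had Tbl1xr1, which encodes a subunit of the NCoR corepressor, and Hdgfl1. The pseudokinase gene Trib2 had 20. Sox2, the stem cell transcription factor gene, had 12, as did Nr2f1, a regulator of cortical areas. Meis1, a homeobox gene, had 11, and the AMPA receptor gene Gria2 had 10. This tally was made after the values were seen, and a nearest gene need not be a gene that the domain acts on.

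Nearest genes carried marks of activity more often than genes near other intergenic sequence. H3K4me3 touched the nearest gene of 86.0% of members, against 68.2% for windows outside genes and members and 65.2% of all protein-coding genes of the 16 autosomes. H3K27ac did so for 73.6% of members, against 43.7% for windows and 43.4% of all genes. H3K36me3 covered at least 25% of the nearest gene for 46.6% of members and 23.7% of windows, and this was so at 30.2% of all genes. H3K27me3 ran the other way, with 8.96% for members, 20.5% for windows and 10.6% of all genes. These member shares count a gene once for each of its members. Counted once each, the 704 distinct nearest genes had H3K4me3 in 84.4%, H3K27ac in 68.6% and H3K36me3 over at least 25% in 39.9%. H3K27me3 touched 9.94% of them, close to the 10.6% of all genes. Nearest genes of members were also longer, with a median of 59.5 kb against 37.7 kb for windows and 16.8 kb for all genes, and the part of length in these shares was not tested.

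Gene families of the nearest genes were uneven. Olfactory receptors were nearest to 2 members (0.102%) but to 2.14% of windows, vomeronasal receptors to 3 members (0.153%) but 1.57% of windows, and protocadherins to 3 members (0.153%) but 1.58% of windows. Cadherins, beta-defensins, serpins and keratins by symbol were nearest to none, against 0.791%, 0.0879%, 0.146% and 0.0354% of windows. Prolactin family genes, which form a cluster of placental hormone genes on chromosome 13, were nearest to 14 members (0.712%) against 0.142% of windows. Zinc finger genes were nearest to 42 members (2.14%) against 1.51% of windows. Solute carriers were nearest to 26 members (1.32%) against 1.44%, and predicted genes to 72 members (3.66%) against 7.42%. These shares count a gene once for each of its members. Zfp608 alone was nearest to 27 members and Prl5a1 to 9. Most of the zinc finger and prolactin counts thus came from a single gene each, and family shares without these genes were not computed.

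H3K36me3 and H3K27me3 were almost absent from the domains. H3K36me3 overlapped 9 of 1965 members (0.458%, 0.210 to 0.868) and 238 genic islands (14.2%, 12.5 to 15.9). H3K27me3 overlapped 6 members (0.305%, 0.112 to 0.663) and 19 genic islands (1.13%, 0.683 to 1.76). By length, H3K36me3 covered 0.149% of members and 0.919% of the other sequence outside genes, and H3K27me3 covered 0.0487% of members and 1.88% of the other sequence. The median distance from a member to H3K36me3 was 284 kb, against 107 kb from a genic island, and to H3K27me3 it was 533 kb against 333 kb. Within 10 kb lay H3K36me3 for 60 members (3.05%) and H3K27me3 for 23 (1.17%). The Setd5+/- lists gave 11 members with H3K36me3 and 8 with H3K27me3.

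The few members with either mark can be named. H3K36me3 covered all 9.60 kb of a member 17.4 kb from the tubulin gene Tubb2b, chr13:34100001-34109600, and 72.7% of the Mir6390 island between Ndfip2 and Spry2. It also covered 52.9% of a member 24.9 kb from Zfp169, and from 4.76% to 16.7% of members near Ndfip2, Nova1, Rora, Raet1d and Mdfic, beside the Mir125b-2 island. H3K27me3 was longest on a member 37.4 kb from the purinergic receptor gene P2ry1, chr3:61046401-61075200, with 5.20 kb (18.1%). It covered 4.60 kb (47.9%) of a member near Tmem167, 3.00 kb near Zfp608 and 1.40 kb near Sp8, a transcription factor gene of the forebrain, and 0.2 kb each near Nxph1 and Rpusd4. None of the 6 had as much as 50% covered. SETD5-V5 overlapped 6 members (0.305%) and 74 genic islands (4.41%), and it covered 0.195% of member length against 0.938% of the other sequence outside genes.

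Marks of enhancers were frequent in the domains. H3K4me1 overlapped 882 members (44.9%, 42.7 to 47.1) and 969 genic islands (57.7%, 55.3 to 60.1). H3K27ac overlapped 545 members (27.7%, 25.8 to 29.8) and 583 genic islands (34.7%, 32.5 to 37.1). H3K4me3 overlapped 232 members (11.8%, 10.4 to 13.3) and 338 genic islands (20.1%, 18.2 to 22.1). Intergenic shares were thus the lower ones for all 3 marks. Against other sequence outside genes, member length was richer in 2 of them. H3K4me1 covered 7.82% of member length and 1.37% of the rest, a ratio of 5.73, and H3K27ac covered 4.99% and 0.684%, a ratio of 7.29. H3K4me3 covered 0.983% and 0.963%, a ratio of 1.02. Islands of H3K4me1 in members were short, with a median of 1800 bp, and the share fell to 1.17% when at least 50% of the member had to be covered.

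**Figure D2:**
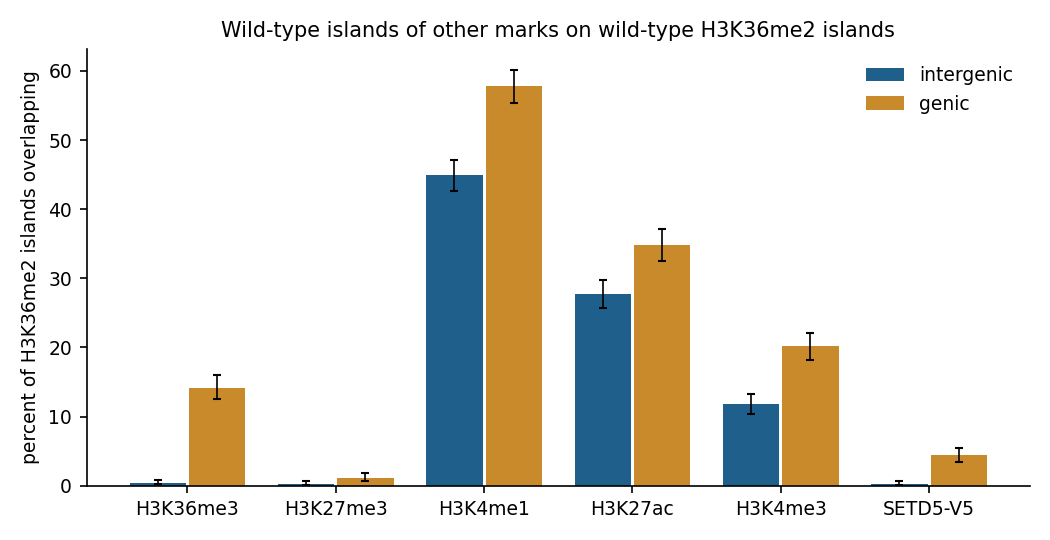
Percent of wild-type H3K36me2 islands overlapped by 1 bp or more by a wild-type island of each mark, for intergenic (left bar) and genic (right bar) islands, with 95% exact intervals over islands. Intergenic shares are lower for every mark, from 0.458% against 14.2% for H3K36me3 to 44.9% against 57.7% for H3K4me1.

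The order held within classes of width. In the narrowest, middle and widest of 3 width classes, H3K4me1 overlapped 40.5%, 40% and 54.8% of intergenic and 49.7%, 59.97% and 64.1% of genic islands. H3K36me3 overlapped 0.752%, 0.299% and 0.317% of intergenic and 12.8%, 15.0% and 14.8% of genic islands. Active marks were rarest on the members farthest from genes, while H3K4me1 and H3K27ac were most frequent at 10 to 50 kb. H3K4me1 overlapped 54.1% of members within 10 kb of a gene, 59.5% at 10 to 50 kb, 49.2% at 50 to 200 kb and 33.0% beyond. H3K27ac overlapped 35.8%, 38.9%, 31.4% and 18.2%, and H3K4me3 overlapped 19.5%, 17.8%, 12.1% and 7.30% over the same steps.

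The majority of members had none of the 3 active marks. They numbered 1022 (52.0%), against 671 genic islands (39.99%). H3K4me1 alone lay on 343 members, H3K4me1 with H3K27ac on 329, and all 3 marks on 169 (8.60%), against 254 genic islands (15.1%) with all 3. H3K27ac without H3K4me1 was rare, on 39 members alone and on 8 with H3K4me3.

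Retention was counted as overlap of a wild-type island by 1 bp or more with a Setd5+/- H3K36me2 island. It was higher for intergenic than for genic islands. Of the members 644 (32.8%, 30.7 to 34.9) were retained, against 348 genic islands (20.7%, 18.8 to 22.8), with 27.2% over all 3643 islands. The difference was 12.0 percentage points (95% Newcombe interval 9.14 to 14.9). It was 7.14 points when islands over noncoding genes and pseudogenes were also counted as genic. With at least 50% of the island covered, 25.1% of intergenic and 15.1% of genic islands were retained, with 20.5% over all. By length, 25.6% of intergenic and 16.6% of genic H3K36me2 was covered in Setd5+/- cells. The wild-type list was also reduced to its densest islands, to the covered length of the Setd5+/- list on these autosomes, which stayed whole. Of the intergenic islands left, 38.1% were retained, and the difference from genic islands was 13.4 points (9.60 to 17.1).

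Retention rose with strength in both classes. From the weakest to the strongest class it was 18.5%, 28.8%, 38.6% and 42.6% for 454, 462, 502 and 547 intergenic islands. For genic islands it was 12.5%, 19.3%, 26.2% and 26.9%. The intergenic minus genic difference was 6.03 points (1.19 to 10.9) in class 1, 9.49 in class 2, 12.5 in class 3 and 15.7 (9.21 to 21.9) in class 4. The top minus bottom difference among members was 24.1 points (18.4 to 29.6). It was 12.6 points when the wild-type list was reduced to its densest islands, at the covered length of the Setd5+/- list. Setd5+/- islands on the 16 autosomes were denser, with a median of 17.9 reads per kb against 15.5 in wild type, and none was under 14.1, a density that 178 members (9.06%) did not reach. Densities under 16.3, the 5th percentile of the Setd5+/- islands, were found for 69.8% of intergenic and 76.3% of genic wild-type islands.

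**Figure D3:**
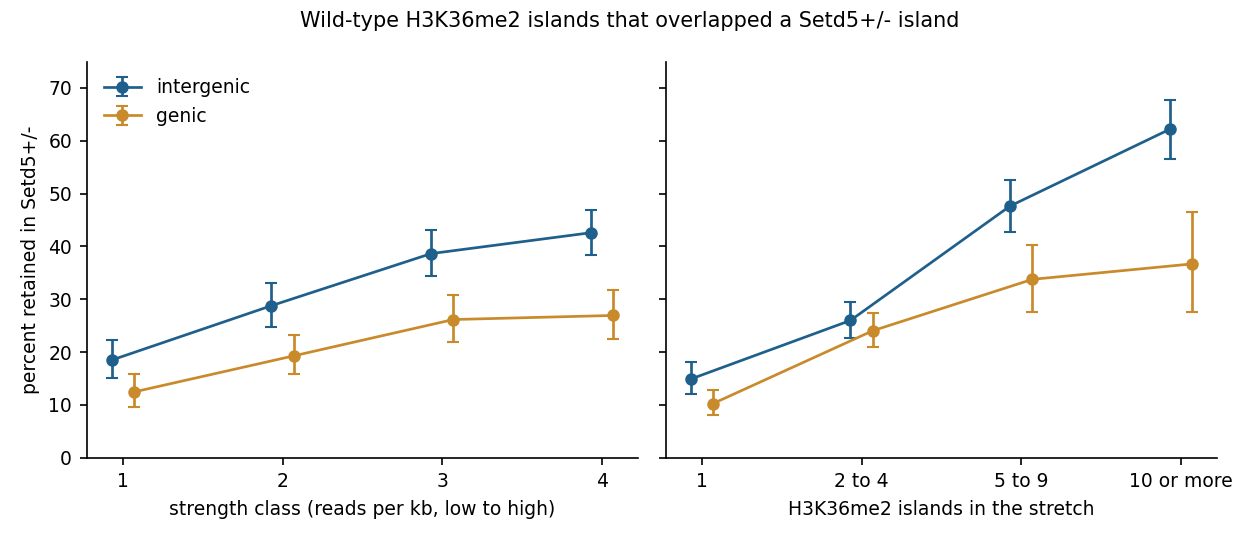
Percent of wild-type H3K36me2 islands overlapped by a Setd5+/- island, by strength class (left) and by the number of H3K36me2 islands of either class in the same stretch (right), for intergenic and genic islands, with 95% exact intervals over islands. Among intergenic islands the share runs from 18.5% to 42.6% with strength and from 14.9% to 62.2% with the size of the stretch.

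Retained islands were wider. Retained members had a median of 14.4 kb and 230 reads, against 12.8 kb and 198 reads for those not retained. In 4 width classes from narrow to wide, 28.0%, 28.3%, 26.0% and 49.6% of members were retained, against 14.7%, 17.8%, 20.4% and 32.6% of genic islands. Averaged over the 3 width classes, the intergenic minus genic difference was 11.7 points. Shares differed less with distance to the nearest gene, with 27.04% retained within 10 kb, 31.9% at 10 to 50 kb, 34.2% at 50 to 200 kb and 33.2% beyond. Members that were not retained lay a median of 85.6 kb from a Setd5+/- H3K36me2 island, against 176 kb for genic islands. Retained members were covered over a median of 77.8% of their length, and retained genic islands over 72.7%.

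Members with an active mark were retained more often. Of 943 with H3K4me1, H3K27ac or H3K4me3 in wild type, 39.6% (36.4 to 42.8) were retained, against 26.5% (23.8 to 29.3) of 1022 with none. In the narrow, middle and wide classes the shares were 30.4%, 33.3% and 51.8% with a mark and 27.1%, 21.6% and 32.6% without. The intervals of the narrow class overlapped. By combination, with all 3 marks 44.97% were retained, with H3K4me1 and H3K27ac 42.9%, and with H3K4me1 alone 36.2%. With H3K27ac alone it was 38.5% of 39 (23.4 to 55.4), and with H3K4me1 and H3K4me3 29.3% of 41 (16.1 to 45.5). With H3K27ac and H3K4me3 it was 2 of 8, and with H3K4me3 alone 3 of 14. The intervals from H3K27ac alone onwards include the share without a mark. Among genic islands 22.8% with a mark and 17.6% without were retained.

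Retention varied by chromosome. Intergenic islands were retained more often than genic ones on 14 of 16 autosomes, the exceptions being chromosome 2, with 25.8% of intergenic and 27.5% of genic islands, and chromosome 16, with 26.8% of intergenic and 27.05% of genic islands. Chromosome 13 held most members, 244, and had the highest share, 51.6% (45.2 to 58.1), against 37.4% of its genic islands. On chromosome 13 the Setd5+/- list covered 5.99 Mb and the wild-type list 5.63 Mb, while it covered less than wild type on the other 15. Chromosome 9 had the lowest share, 18.9% (10.7 to 29.7) of 74 members. Without chromosome 13, 30.1% of members were retained, and the difference from genic islands was 10.5 points. Chromosome 10 showed the widest gap, with 32.1% of 162 intergenic and 9.38% of its genic islands retained.

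**Figure D4:**
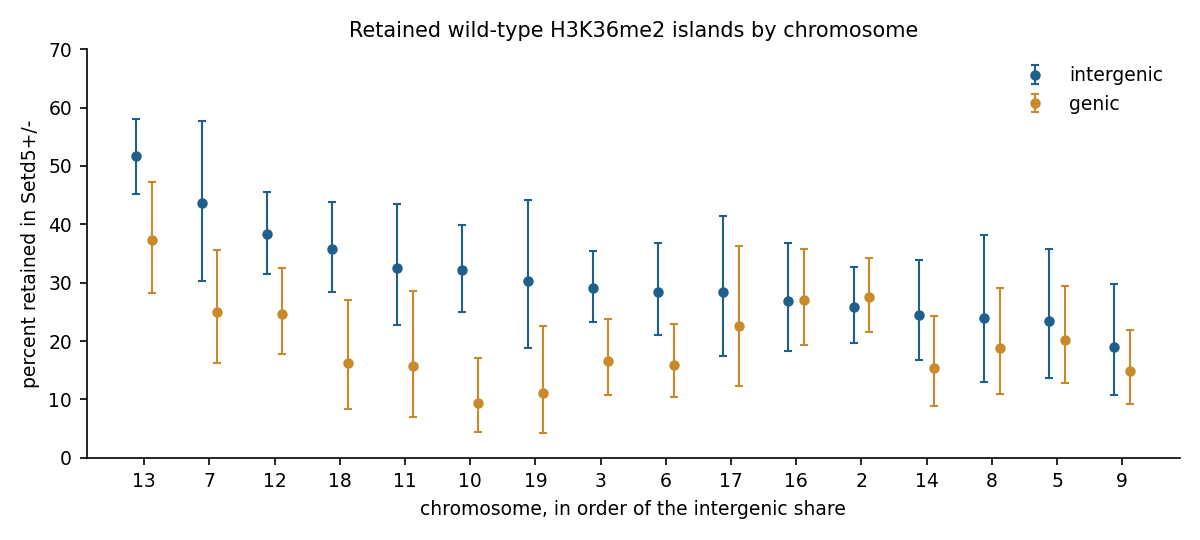
Percent of intergenic and genic wild-type H3K36me2 islands overlapped by a Setd5+/- island on each of the 16 autosomes, with 95% exact intervals over islands. Chromosome 13 is highest for both classes at 51.6% and 37.4%, and the intervals of the classes overlap on most chromosomes.

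Members with close neighbours were retained more often than lone ones. Members no more than 50 kb apart were joined into stretches, a step chosen after the values were seen. Of 633 members that stood alone 15.8% (13.04 to 18.9) were retained, against 28.0% in stretches of 2 to 4, 48.9% in stretches of 5 to 9 and 62.5% (56.5 to 68.3) of 272 members in the 18 stretches of 10 or more. Median widths were 12.8, 12.8, 14.4 and 15.2 kb, and median densities 15.3, 15.5, 15.8 and 16.2 reads per kb. Within the narrow, middle and wide classes, members of the 18 stretches were retained at 50.0%, 56.5% and 74.8%, and lone members at 15.2%, 13.9% and 20%. With gaps of up to 100 kb the share in stretches of 10 or more was 50.8%, and without chromosome 13 it was 61.0%.

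Counting genic islands into the stretches separated the classes. Lone islands were retained at 14.9% if intergenic and 10.3% if genic, and in stretches of 2 to 4 at 26.0% and 24.0%, with overlapping intervals. In stretches of 5 to 9 the shares were 47.6% (42.7 to 52.6) for intergenic and 33.8% (27.6 to 40.4) for genic islands, and in stretches of 10 or more they were 62.2% (56.5 to 67.6) and 36.7% (27.7 to 46.5). Stretches of 10 or more held 15.5% of intergenic and 6.50% of genic islands, and 29.4% of intergenic and 39.5% of genic islands stood alone.

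The longest stretch lay between Hdac2, a histone deacetylase gene, and Rfpl4b, at chr10:37062401-38628000. Its 48 members filled 60.9% of 1566 kb and held 15625 reads, and 31 of them were retained. Marcks stands inside it without an H3K36me2 island on the gene, and 18 of the 48 members had H3K4me1 and 14 had H3K27ac. Between Nrsn1 and Prl, at chr13:25908801-26808800, 23 members filled 59.6% of 900 kb, and 17 were retained. Hdgfl1 stands inside this stretch, near its end towards Prl. Between Stxbp6 and Nova1, 171 kb from Nova1, at chr12:45856801-46526400, 20 members filled 57.1% of 670 kb, and 15 were retained. Beside Tbl1xr1, at chr3:21328001-21904800, 19 members lay in 577 kb, and 13 were retained.

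Other stretches gave a wider range. Beside Zfp608, at chr18:55260801-55686400, 10 of 11 members were retained, and between Gap43, a growth cone gene, and Zbtb20, a transcription factor gene, 7 of 10 were. Near Klf6, 9 of 12 were retained, around Trib2 11 of 17, and between Ndfip2 and Spry2, an inhibitor of FGF signalling, 8 of 11. Beside Klf12 only 6 of 16 were retained, and between Pik3r1 and Cd180 5 of 12. Among the 36 genes nearest to 10 members or more, the highest share was 11 of 13 for Nrsn1. For the genes with many members it was 24 of 39 for Nova1, 18 of 27 for Zfp608, 17 of 26 for Marcks, 15 of 21 for Hdgfl1 and 14 of 20 for Trib2. At the other end it was 5 of 21 for Zeb2, 3 of 19 for Ndufa4, a respiratory chain gene, 2 of 18 for Eno1b, 1 of 13 for Immp2l and 0 of 10 for Acvr2a, an activin receptor gene.

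The 10 widest members were all retained, against 32.8% of all members. Retention here is by the rule of 1 bp or more, which a wide island meets more readily. The widest, chr13:26548801-26612800, ran over 64.0 kb with 1098 reads and lay 155 kb from Hdgfl1. Setd5+/- islands covered 72.5% of it with 947 reads in 48.8 kb. The next, chr17:9842401-9904800, had 62.4 kb and 1021 reads between Pabpc6 and Qk, the RNA-binding protein gene of glia, and 70.5% of it was covered. Coverage was lowest at 28.1% on chr18:55484801-55536000, 492 kb from Zfp608, among the 10. Other wide members lay near Marcks, Nova1, Itga4, Ndfip2 and Mex3c. The 10 retained members with most reads included 9 of these 10, the addition being chr12:46480001-46526400 with 759 reads, 171 kb from Nova1.

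The 10 farthest from genes were all without a Setd5+/- island. Of these, 9 lay in the desert between Zeb2 and Acvr2a on chromosome 2, from 1584 to 1836 kb from the nearer of these genes, and 1 lay 1633 kb from Ctnna2, the alpha-N-catenin gene, on chromosome 6. Their median width was 13.2 kb and their median density 15.1 reads per kb, close to 13.6 kb and 15.6 over all members. H3K4me1 lay on 1 of the 10. Retained shares were 32.8% over all members and 33.2% of those beyond 200 kb from a gene, so the 10 do not stand for distant members.

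The 10 densest were mostly narrow, with a median of 4.80 kb, and 1 of 10 was retained. The densest, chr3:142191201-142192800, packed 80 reads into 1.6 kb, 21.6 kb from the BMP receptor gene Bmpr1b. The second, chr8:20987201-21000800, held 521 reads in 13.6 kb within the alpha-defensin cluster, 24.7 kb from Defa21. Defensin genes are near-identical copies, so reads there are uncertain. The retained one, chr3:149044801-149054400, held 212 reads and lay 55.7 kb from Adgrl2, a latrophilin gene, beside a Setd5+/- island of 505 reads.

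Noncoding genes overlapped a part of the domains. A lncRNA gene overlapped 480 members (24.4%), and lncRNA spans took up 15.9% of member length, against 11.8% of the other sequence outside protein-coding genes. Members with a lncRNA gene were retained at 36.04% (31.7 to 40.5) and those without at 31.7% (29.4 to 34.2), with overlapping intervals. Pseudogenes overlapped 96 members and snoRNA genes 8.

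Islands of active marks inside members were compared between genotypes with the same marks elsewhere. Of 1283 wild-type H3K4me1 islands in members, 56.6% (53.8 to 59.3) met a Setd5+/- H3K4me1 island, against 41.2% (40.2 to 42.3) of 8237 outside genes and outside H3K36me2, with 46.4% over all. Those in members had a median of 53 reads and those outside 42. For H3K27ac the shares were 60.9% in members and 59.4% outside, with 67.3% over all, and the intervals overlapped. For H3K4me3 they were 85.8% (81.0 to 89.8) and 78.7% (77.5 to 79.9), with 88.2% over all. In genic H3K36me2 islands the shares were higher than in members for all 3 marks, with 60.5% (58.1 to 62.9) for H3K4me1, 64.3% for H3K27ac and 90.5% for H3K4me3, and the intervals of the classes overlapped. In retained members 61.0% of H3K4me1, 65.7% of H3K27ac and 90.7% of H3K4me3 islands were kept, against 53.1%, 56.4% and 82.5% in members that were not retained. The intervals overlapped for H3K4me3 and for H3K27ac.

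From the Setd5+/- side, 1040 of 1736 H3K36me2 islands on the 16 autosomes were intergenic. Of these, 587 (56.4%, 53.4 to 59.5) met a wild-type H3K36me2 island, against 316 of 696 genic ones (45.4%, 41.7 to 49.2), with 52.0% over all. Their median width was 17.6 kb in both classes, and intergenic islands made up 59.9% of the Setd5+/- islands.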

How the data were processed

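Island lists of 13 libraries were used, and the 3 input samples were left out. According to the submitters' processing notes the tools were FastQC, Bowtie2 2.2.3 and SICER 1.1, on build GRCm38 (mm10). SICER settings stand in 5 of the 13 lists, per the file headers: windows of 800 bp, gaps of up to 2400 bp, and a threshold of 0.01 on the false discovery rate. The values are the authors' deposited counts of reads per island, read so from their range since the column has no name. No normalization is recorded.

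Overlaps of 1 bp or more, distances and reads per kb were computed here with Python 3.11.15, numpy 2.4.6, pandas 2.3.3, scipy 1.17.1 and matplotlib 3.10.9, against the spans of 17357 RefSeq protein-coding genes on the 16 autosomes. Steps were tested on simulated intervals. With 1 library per group there was no test. Exact, Newcombe and Poisson intervals and those of medians reflect counting alone, and amplified reads that carry no molecular identifier are not separate molecules. Background windows of 800 bp tile the sequence outside genes and members.

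Named islands were the 10 densest, 10 widest, 10 farthest from genes and 10 retained with most reads, each with its nearest gene. Members, lists and comparisons were chosen with earlier results of these data known. Stretches, the nearest-gene tally and the split by active marks were chosen after their values were seen. A GRCm38 genome sequence was not used here, so island base composition was not computed. Alternatives to each choice are given in the closing section.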

Additional observations from a re-analysis of the deposited data

How the results depend on the processing

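Alternative settings gave 76 recomputed values, of which 61 stayed inside the interval of the value reported, or within 1.5 times of the count, and 15 moved outside. No difference changed sign. Counting noncoding genes and pseudogenes as genes gave 40.7% of intergenic islands with H3K4me1 and an intergenic minus genic retained difference of 7.14 points. With chromosomes 1, 4 and 15 included 43.1% were retained, and without chromosome 13 30.1%. Leaving out the islands with fewest reads in every list gave a median width of 15.2 kb, 15.4 reads per kb, 41.2% with H3K4me1 and 27.6% retained. Requiring 50% of the island covered gave 0.204% with H3K36me3, 0% with H3K27me3, 1.17% with H3K4me1 and 25.1% retained. At equal covered length, with only the wild-type list cut to its densest islands, 38.1% were retained. The difference between the strongest and weakest strength class was then 12.6 points. Stretches of 10 or more members had 50.8% retained with gaps of up to 100 kb, 65.2% with gaps of up to 20 kb and 62.1% without the stretch with most members. Causes of these shifts were not tested beyond the construction of each alternative. No paired analysis was possible because each group has 1 library. Depth outside islands is unknown, and a median island's counting interval spans all strength cuts. The Setd5+/- H3K36me2 list covers less of these autosomes than the wild-type list, and a loss of marking and a loss of calling power cannot be told apart in retention.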
